A study of Homo sapiens with 9 samples.

Results

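NLF cells in which TBX2 had been knocked down were compared with NLF cells that received a control small interfering RNA (siRNA), gene by gene, across the transcriptome. The comparison set the 3 libraries of cells given an siRNA against TBX2 (siTBX2) against the 3 libraries of cells given a non-targeting siRNA (siNTC), 6 of the 9 libraries of the study. The other 3 libraries came from cells given an siRNA against TBX2-AS1 (siTBX2-AS1), the antisense long noncoding RNA of the same locus. All 9 libraries came from the human neuroblastoma line NLF, labelled as wild type and of neural crest cell type, and RNA was taken after 48 hours of siRNA treatment, and the labels set the groups apart by the siRNA alone. NLF is a single cell line, and how many siRNA sequences stood behind each treatment was not given in the sources used here. Of 57757 genes in the count table, 18367 passed the filter on low counts and were tested.

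TBX2 is a T-box transcription factor that binds short T-box elements near its target genes and mostly represses them. In development it acts in limb, heart and neural crest derivatives, and in tumours it is best known for holding down cell cycle inhibitors. In neuroblastoma, a childhood tumour of sympathetic neural crest origin, TBX2 belongs to the adrenergic core regulatory circuitry, a group of transcription factors that keep each other active, HAND2, GATA3 and MYCN among them. An siRNA guides the Argonaute proteins to a matching mRNA, which is then cut, and its seed (bases 2 to 8 of the guide) can also pair with sites in the 3′ untranslated regions (3′ UTRs) of other mRNAs. The labels describe a stranded library kit with depletion of ribosomal RNA. The question stated by the design was what TBX2 does in these cells.

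The 6 libraries held 42178655 to 50490867 counts each, and the 3 siTBX2-AS1 libraries 31894280 to 51434090. Levels below are CPM, counts scaled to library size with TMM factors, and changes are given as log2 ratios with a standard error (SE), from one edgeR quasi-likelihood fit over all 9 libraries. A gene rose or fell when its Benjamini-Hochberg adjusted p over all tested genes was under 0.05. The labels call the replicates biological. The adrenergic transcription factor HAND2 was present in both groups, at 42.3 to 60.8 FPKM (fragments scaled to transcript length and library size) in siNTC and 44.4 to 56.9 in siTBX2. The noradrenaline-synthesis gene DBH did not exceed 0.202 FPKM in any of the 6 libraries and TH did not pass the filter, so these defining markers of mature sympathetic cells were near 0. Markers of other cell types were mixed. Those of fibroblasts were expressed, with LUM at 31.5 to 36.2, COL1A1 at 10.2 to 12.1, DCN at 7.91 to 17.9 and THY1 at 7.86 to 14.5 FPKM in siNTC, and KRT18 of epithelium (0.977 to 4.10) and MITF of melanocytes (1.971 to 2.396) were lower. The Schwann cell gene SOX10, the leukocyte genes CD3E and LYZ, and the endothelial genes PECAM1, CDH5 and KDR were below the filter, and the leukocyte gene PTPRC did not exceed 0.00623 FPKM. The mesenchymal-type markers VIM (462 to 547 FPKM in siNTC), FN1 (126 to 146) and TWIST1 (56.27 to 59.96) were abundant, while SNAI2 (1.90 to 2.71), FOSL1 (1.92 to 2.82) and PRRX1 (0.0305 to 1.18) were low and CD44 was below the filter. None of the 11 adrenergic or 9 mesenchymal-type markers tested rose or fell, where 1.61% of all tested genes did. Among so few markers this does not show that they were unchanged. With the replicate number as a block in the fit, the adrenergic marker STMN2 fell (-0.96, adjusted p = 0.0249).

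The target was read first. TBX2 (ENSG00000121068.9; chr17:61399896-61409466, plus strand, GRCh38) stood at 275.9, 254.3 and 249.4 CPM in the siNTC libraries and at 127.4, 110.1 and 112.8 CPM in the siTBX2 libraries. The groups did not overlap, and the mean fell to 44.9% of the control level, from 260 ± 14.1 to 117 ± 9.31 CPM (SD, n = 3; log2 fold change -1.15, SE 0.11, adjusted p = 0.00734). The antisense RNA TBX2-AS1 (chr17:61393456-61411555, minus strand) read 37.52, 33.997 and 37.43 CPM in siNTC and 31.7, 38.7 and 36.5 CPM in siTBX2, and these groups overlapped (log2 fold change -0.03, SE 0.52, adjusted p = 0.989). That SE of TBX2-AS1 draws on the spread of all 9 libraries, and its level in siTBX2-AS1 was 4.71, 5.87 and 0.714 CPM. The siNTC and siTBX2 groups had SDs of 2.01 and 3.59 CPM. Permuting the 6 library labels in full (exact, two-sided) gave p = 0.1 for TBX2, the smallest value 3 against 3 libraries can reach, and p = 0.8 for TBX2-AS1.

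**Figure D1:**
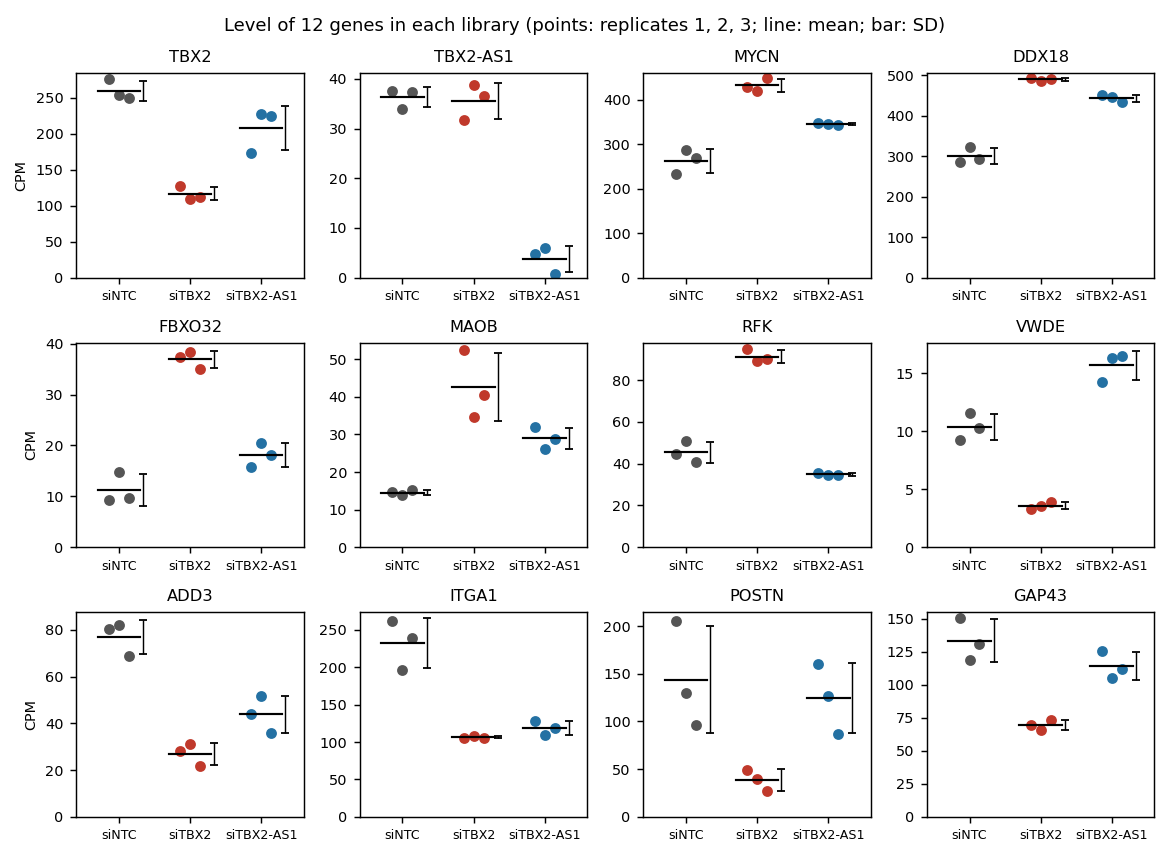
CPM of 12 genes in each of the 9 libraries, one panel a gene, with the library group on the x axis; points are the replicates, the horizontal line is the mean and the bar the SD. TBX2 and the falling genes sit lower in all 3 siTBX2 libraries than in any siNTC library, MYCN, DDX18, FBXO32, MAOB and RFK sit higher, and TBX2-AS1 is low in siTBX2-AS1 but not in siTBX2.

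With TBX2 lowered, 146 genes rose (0.795% of those tested) and 149 fell (0.811%), 295 in all (1.61%). The falls were the larger changes: 46 genes fell and 19 rose at least 2-fold, and the median log2 fold change was -0.74 among genes that fell and 0.60 among genes that rose, against 0.0038 over all tested genes. All 295 had siTBX2 libraries that did not overlap the siNTC libraries, as did 22.8% of all tested genes. Before adjustment, 2945 of the 18367 tested genes had a p under 0.05 in this fit, 1568 of them higher and 1377 lower. Called genes were mostly abundant and protein-coding: 92.2% were coding, against 72.4% of tested genes, and the share called climbed from 0.179% of genes below a mean log2 CPM of 0 to 3.52% of those at 6 or more, where the median SE was 0.10 in place of 0.46. With the replicate number as a block, 873 genes (4.75%) were called, 451 up and 422 down, and 291 of the 295 remained called. With the block and only the 6 siTBX2 and siNTC libraries in the fit, no gene was called, the smallest adjusted p being 0.0753 (3660 genes at an unadjusted p under 0.05), so the calls below rest on the spread shared over all 9 libraries.

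**Figure D2:**
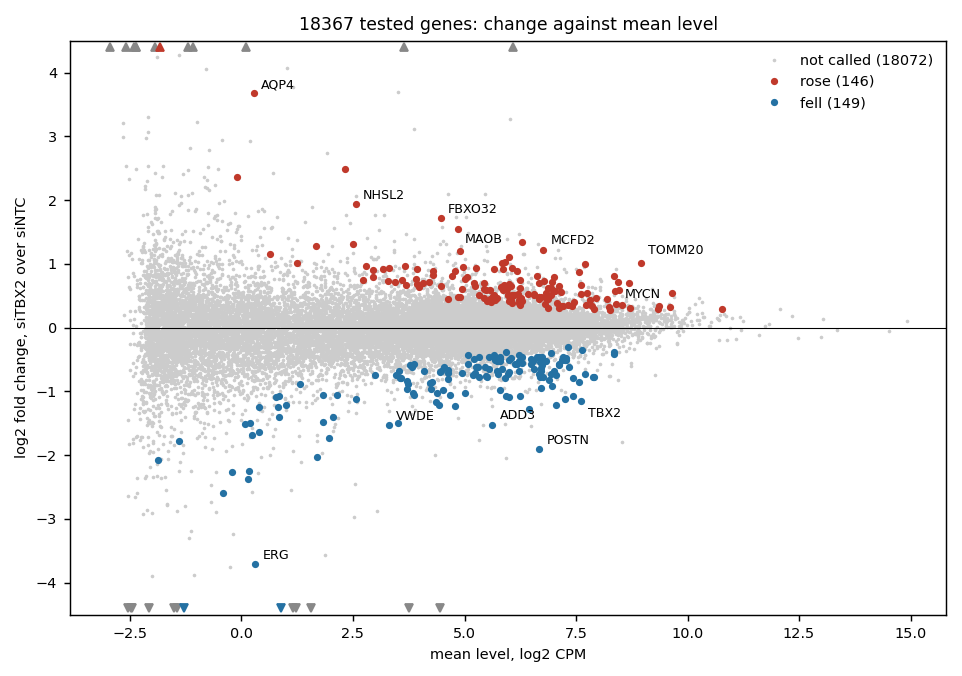
Log2 fold change of siTBX2 over siNTC (y axis) against mean log2 CPM (x axis) for the 18367 tested genes; red points rose, blue points fell, grey points were not called, and 25 genes beyond 4.5 either way are drawn as triangles at the edge. The 295 called genes lie mostly to the right, at higher counts.

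Because the count depended on single libraries (44 to 177 calls when any 1 of the 9 was left out), the genes called in all 9 of those fits were looked at as a group, chosen after the values were seen. There were 33, of which 14 rose and 19 fell, and all stayed called with the replicate block in the 9-library fit. Besides TBX2, the 19 held VWDE, which encodes a secreted protein with von Willebrand factor and EGF domains, ADD3 (adducin 3, which caps actin filaments and ties them to spectrin), XPR1, the phosphate exporter of the cell membrane, and ITGA1, the alpha-1 integrin that binds collagen. They also held ERLIN2 and ACBD5, which act at the endoplasmic reticulum and its contacts with peroxisomes, SLIT3, a secreted repellent of growing axons, GPD2, the mitochondrial glycerol-3-phosphate dehydrogenase, GAP43, FNDC3A, GFPT1, which opens the hexosamine pathway, CDC27, a subunit of the anaphase-promoting complex, TMEM245, SSR3, HIPK3, SCARB2, UBXN2A and HECW2. The 14 that rose included FBXO32, MAOB, MCFD2, LZTFL1, TOMM20, RFK, H3-3A, KLF9, DDX10, FYN, MYCN, DDX18 and the small nucleolar RNA host gene SNHG16. At the other end, 95 of the 295 (58 that rose and 37 that fell) were called in none of the 9 fits, POSTN, CCNB1, KIF20A, NPM1 and CDC45 among them.

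**Figure D3:**
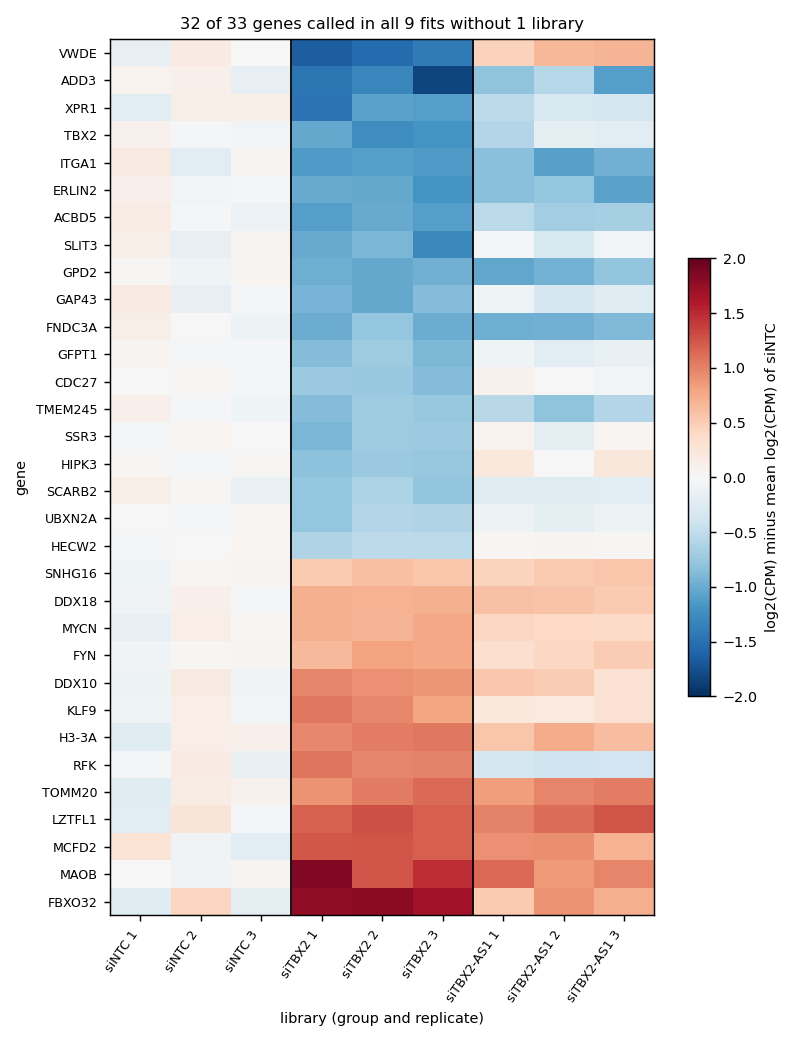
Log2 CPM of 32 of the 33 genes in each library, minus the mean log2 CPM of the 3 siNTC libraries (colour scale from -2, blue, to 2, red); rows are genes in the order of their fold change and columns are libraries. Each gene has one colour across the 3 siTBX2 libraries, while the siTBX2-AS1 libraries share that colour for some genes (ITGA1, GPD2, TOMM20, LZTFL1) and not for others (VWDE, CDC27, HIPK3, RFK).

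Several matrix, adhesion and guidance genes fell. Periostin (POSTN), a matrix protein that binds integrins and is prominent in mesenchymal tissue, read 205.6, 129.9 and 96.5 CPM in siNTC and 49.2, 39.5 and 26.6 CPM in siTBX2. The replicates spread widely, and the groups did not overlap (log2 fold change -1.90, SE 0.35, adjusted p = 0.0443; 0.00404 with the replicate block, and 0.0572 to 0.127 in the fits without 1 library). VWDE was at 9.26, 11.6 and 10.3 CPM in siNTC and at 3.31, 3.56 and 3.88 CPM in siTBX2, a tight separation (log2 fold change -1.53, SE 0.13, adjusted p = 0.00589). TNFAIP6, which crosslinks hyaluronan in the matrix, fell by 1.41 on the log2 scale (SE 0.24) and lumican (LUM), a small proteoglycan that orders collagen fibrils, fell by 0.59 (SE 0.10). Of the 44 tested genes of the extracellular matrix list, these 4 fell and 1 rose, SERPINE2 (protease nexin-1, an inhibitor of thrombin and plasmin; 0.91, SE 0.17), and the median was -0.04. In the fits without 1 library 1 to 3 members of this list fell and none rose. LUM is also 1 of 6 tested fibroblast markers, whose summed level was 300 to 343 CPM in siNTC and 266 to 288 CPM in siTBX2. The collagen genes COL19A1 (-1.17, SE 0.21), COL6A6 (-1.06, SE 0.20) and COL16A1 (-1.05, SE 0.18) fell too, the last 2 named after their values were seen, while the fibrillar collagen COL1A1 was not called (0.30, adjusted p = 0.335).

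Among 35 integrin and junction genes, ITGA1 alone fell. Its level was 261.4, 196.1 and 239.4 CPM in siNTC and 105.6, 107.9 and 105.7 CPM in siTBX2, where the 3 libraries were almost equal (log2 fold change -1.13, SE 0.11, adjusted p = 0.00716). In the GENCODE annotation ITGA1 shares 475 exon bases on the same strand with PELO, so some reads could belong to either gene; PELO itself was not called (-0.53, adjusted p = 0.0681). With the replicate block, 5 members of this list fell, the added ones being ITGA4 (-0.77), the cadherin CDH10 (-0.57), connexin 43 (GJA1, -0.34) and the integrin-linked kinase ILK (-0.30). Of 43 axon guidance genes, 3 fell: SEMA3D, a secreted semaphorin (119.5, 115.7 and 98.1 CPM in siNTC; 33.6, 56.8 and 48.0 CPM in siTBX2), SLIT3 (234.2, 191.2 and 222.9 against 107.3, 114.1 and 87.7 CPM) and EFNB2, the membrane-bound ligand of EphB receptors (4.10, 4.62 and 5.45 against 2.42, 2.15 and 2.26 CPM). None of the 3 pairs of groups overlapped, and the log2 fold changes were -1.27, -1.07 and -1.05 (adjusted p = 0.0262, 0.0104 and 0.0235). The list's median was 0.0002. FAT4, a giant cadherin of the planar polarity pathway, also fell (-1.09, SE 0.16).

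Adducin genes fell as well. ADD3 read 80.4, 82.2 and 68.8 CPM in siNTC against 28.0, 31.1 and 21.6 CPM in siTBX2, a fall to 34.9% of control (log2 fold change -1.52, SE 0.17, adjusted p = 0.00923). ADD1, the ubiquitous alpha-adducin, fell by 0.51 (SE 0.08, adjusted p = 0.0262). In the same list of 50 spectrin, adducin and actin genes, NHSL2, a member of the Nance-Horan family of actin regulators, rose from 2.02, 4.34 and 3.06 CPM to 9.63, 14.1 and 12.2 CPM (change of 1.93 on the log2 scale, SE 0.38, adjusted p = 0.0484), and the calponin CNN3 rose by 0.33 (SE 0.06). NHSL2 shares 502 exon bases with the pseudogene TPT1P15. The list's median was 0.0019, close to that of all tested genes.

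MYCN, the oncogene that is amplified in aggressive neuroblastoma, rose. It read 234, 287 and 269 CPM in siNTC and 430, 419 and 449 CPM in siTBX2, groups far apart relative to their spread (263 ± 26.9 to 433 ± 15.2 CPM, n = 3; log2 fold change 0.72, SE 0.08, adjusted p = 0.00849). Its antisense neighbour MYCNOS, which shares 98 exon bases with it, was at 6.85, 6.73 and 8.42 CPM in siNTC and 7.32, 8.004 and 9.52 CPM in siTBX2 and was not called (0.18, adjusted p = 0.704). Among 28 transcription factors of the core circuitry and the neural crest, 2 rose and 2 fell, with TBX2 among the falls. Beside MYCN the rise was SATB1, a chromatin organiser (0.59, SE 0.12). SATB1 lost its call in every fit without 1 library (adjusted p = 0.0605 to 0.169). It shares 211 exon bases on the same strand with TBC1D5, so some reads could belong to either gene. The list's median was 0.02, against 0.0038 over all tested genes.

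Among the lists described, that of genes for making ribosomes had the most rises. Of 49 tested genes of ribosome biogenesis and the nucleolus, 9 rose, where 0.795% of all tested genes did, none fell, 45 had positive fold changes, and the median was 0.23. The count rested on all 9 libraries: 2 to 4 rose when any 1 was left out. DDX18 and DDX10 rose in each of those fits and NPM1, RRP9, RRS1, GNL3 and PES1 in none. The list was chosen with earlier results of these data known, so its share of rises is a description and not an independent test. Nor was the share of all tested genes matched for abundance. Of the 3812 tested genes with the highest mean levels, 76 rose. The helicase DDX18 read 286, 323 and 292 CPM in siNTC and 493, 485 and 490 CPM in siTBX2 (change of 0.70 on the log2 scale, SE 0.06, adjusted p = 0.00589). The helicase DDX10, which acts in the small-subunit processome, went from 38.0, 46.2 and 38.7 to 80.3, 76.9 and 75.5 CPM (0.92, SE 0.10, adjusted p = 0.00849). Neither pair of groups overlapped. RRP12 (0.51), UTP20 (0.54) and RRP9 (0.42), which serve in processing of ribosomal RNA, RRS1 (0.47), PES1 (0.34) and GNL3 (0.35), which serve the large subunit and the nucleolus, and NPM1, the abundant nucleolar protein nucleophosmin (0.29, SE 0.05), made up the rest. With the replicate block 14 rose and 1 fell (RRP1B, -0.22), LYAR, NOC2L, NOC4L, HEATR1 and UTP15 being added. The 57 cytosolic ribosomal protein genes had 55 positive fold changes and a median of 0.17. Without the block edgeR called none of them, though 30 were higher before adjustment at p under 0.05; with the block 8 rose, RPL24 (0.31) and RPL34 (0.30) among them. In siTBX2-AS1 against siNTC, which uses the same control libraries, the median was 0.13 for ribosome biogenesis and 0.15 for ribosomal protein genes. In siTBX2 against siTBX2-AS1 these medians were 0.09 and 0.0075. The part of the shared control in these values was not tested. NPM1 and many ribosomal protein genes have processed pseudogene copies that can share reads.

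**Figure D4:**
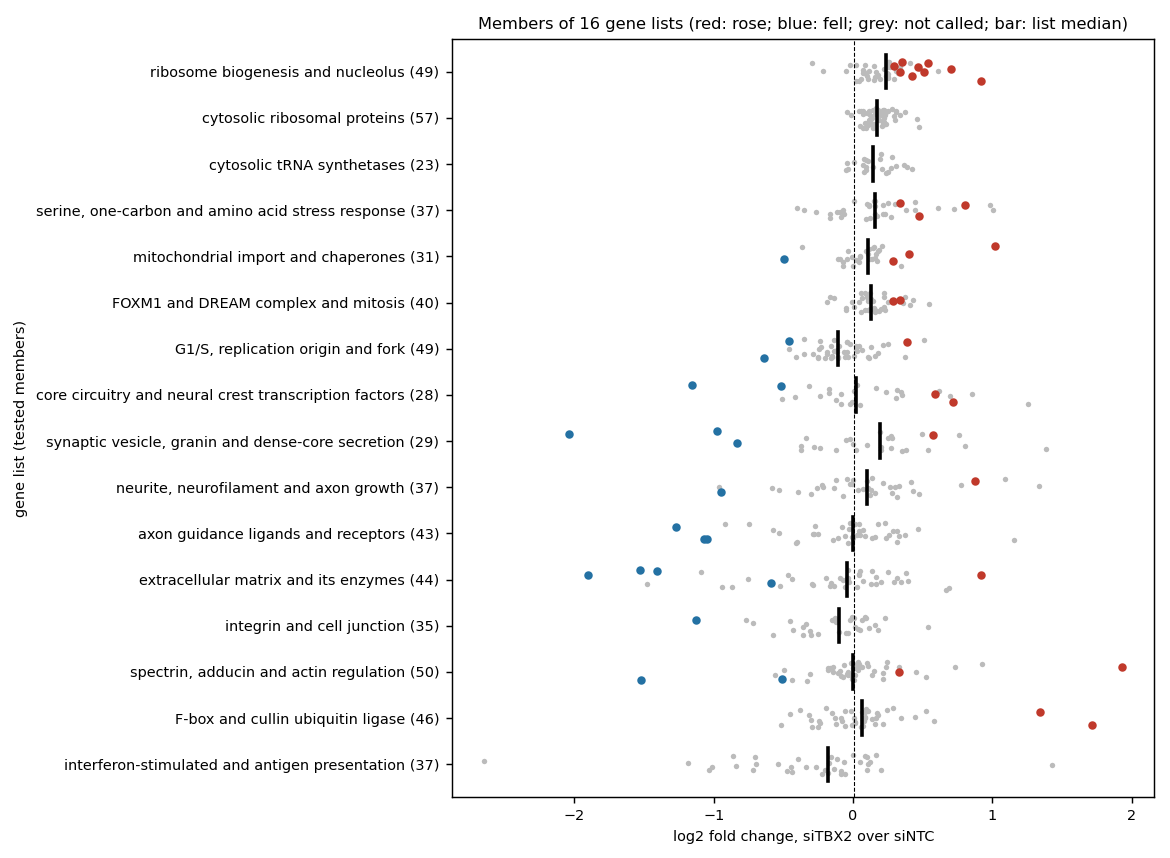
Log2 fold change of siTBX2 over siNTC (x axis) for each tested member of 16 gene lists (rows, number of tested members in brackets); red and blue points rose and fell, grey points were not called, the black bar is the list's median and the dashed line the median of all tested genes. Red points are most frequent in the ribosome biogenesis row, whose median is 0.23, and the blue points furthest from 0 are in the synaptic, matrix and adducin rows.

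Lists of biosynthesis and mitochondria showed at most 3 rises each over small positive medians. Of 37 genes of serine, one-carbon and amino acid stress metabolism 3 rose and none fell (median 0.16): the mitochondrial serine hydroxymethyltransferase SHMT2 (0.48, SE 0.08), the large neutral amino acid transporter SLC7A5 (23.2, 23.3 and 27.1 against 44.9, 36.3 and 46.9 CPM; 0.80, SE 0.13) and the proline-synthesis enzyme ALDH18A1 (0.34, SE 0.06). Of 31 genes of mitochondrial import and chaperones, TOMM20, the receptor for presequences on the outer membrane, read 253, 334 and 320 CPM in siNTC and 558, 619 and 657 CPM in siTBX2 (1.02, SE 0.11, adjusted p = 0.00849). The chaperones HSPE1 (0.40) and HSPA9 (0.29) rose and the cytosolic co-chaperone TOMM34 fell (-0.50). HSPE1 shares 281 exon bases on the opposite strand with HSPD1, and TOMM20 has processed pseudogenes. The 29 cholesterol and fatty acid genes had a median of 0.14, and LSS (0.42), a sterol cyclase, and the regulator SREBF1 (0.51) rose with the block. The glycolytic enzyme HK2 (0.58, SE 0.07) and the histone demethylase KDM3A (0.51, SE 0.10) rose among 36 genes of glycolysis and hypoxia (median 0.03), and the oxidase subunit COX6C (0.38) among 67 respiratory chain genes (median 0.0095). The antizyme inhibitor AZIN1 rose (0.44) and the adenylosuccinate synthase ADSS1 fell (-0.89) among 31 nucleotide and polyamine genes. TOMM20 kept its call in all 9 fits without 1 library and HK2 in 7. SLC7A5 and HSPE1 kept theirs in 3, SHMT2 in 2 and AZIN1 in 1. ALDH18A1, HSPA9, TOMM34, COX6C, KDM3A and ADSS1 kept theirs in none. No cytosolic tRNA synthetase (23 tested, 20 positive, median 0.14) or mitochondrial ribosomal protein gene (66 tested, median 0.09) was called by edgeR without the block, with 10 and 11 higher and 0 and 2 lower at an unadjusted p under 0.05, and 2 rising in each list with the block. In siTBX2-AS1 against siNTC the medians of these 2 lists were 0.14 and -0.02. In siTBX2 against siTBX2-AS1 they were 0.02 and 0.13.

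Rises were also seen in genes of protein turnover, amine breakdown and membrane traffic. FBXO32, the F-box subunit atrogin-1 that marks proteins for degradation in wasting muscle, read 9.24, 14.8 and 9.64 CPM in siNTC and 37.4, 38.3 and 35.1 CPM in siTBX2, 3.29-fold higher (log2 fold change 1.72, SE 0.19, adjusted p = 0.00849). FBXO28 rose from 54.3, 56.0 and 51.4 to 149, 134 and 127 CPM (1.34, SE 0.24, adjusted p = 0.0363). No other gene of the 46 on the F-box and cullin list was called, whose median was 0.06. MAOB, the mitochondrial enzyme that oxidises dopamine and phenylethylamine, rose from 14.6, 13.9 and 15.1 to 52.5, 34.8 and 40.5 CPM (1.55, SE 0.16, adjusted p = 0.00742). In the list of 12 catecholamine genes GCH1, which makes the cofactor of tyrosine hydroxylase, rose too (0.61, SE 0.12), and MAOA rose with the block (0.41). GCH1 lost its call in every fit without 1 library (adjusted p = 0.0639 to 0.169). Its mean FPKM differed little, at 5.03 in siNTC and 5.30 in siTBX2. MCFD2, a cargo receptor subunit between the endoplasmic reticulum and the Golgi, read 76.4, 60.01 and 54.6 against 149, 151 and 144 CPM (1.22, SE 0.13), and the small GTPase RAB33A 2.85, 3.83 and 2.49 against 9.19, 7.67 and 5.90 CPM (1.31, SE 0.21). RAB23, a negative regulator of Hedgehog signalling, fell (-0.77, SE 0.13), though it shares 2842 exon bases with BAG2 on the opposite strand, and the median of the 53 traffic genes was -0.01. FBXO32, MAOB and MCFD2 kept their calls in all 9 fits without 1 library, and FBXO28, RAB33A and RAB23 in 3 each.

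Other clear rises were scattered over functions. LZTFL1, which controls entry of the BBSome into cilia, read 13.8, 19.3 and 15.7 CPM in siNTC and 36.4, 39.4 and 37.0 CPM in siTBX2 (1.21, SE 0.13), the single call among 43 cilium genes (median -0.06). RFK, riboflavin kinase, which makes flavin mononucleotide, rose 2.01-fold, with 44.5, 50.7 and 40.8 against 94.8, 89.1 and 89.9 CPM (1.01, SE 0.09, adjusted p = 0.00613). The replacement histone gene H3-3A, which has processed pseudogenes, went from 115.6, 149.7 and 145.7 to 264.5, 276.1 and 282.8 CPM (1.00, SE 0.10). The Krüppel-like repressor KLF9 (0.94, SE 0.10), the Src-family kinase FYN (0.75, SE 0.08) and the microtubule motor light chain DYNLT3 (0.96, SE 0.14) rose as well. SH3BP5L rose (1.11), but not with the replicate block (adjusted p = 0.0679; 0.0442 to 0.151 over the fits without 1 library). In SH3BP5L the library of siTBX2 replicate 1 was lower than the other two, 69.1 CPM against 113 and 112.

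Neuronal genes moved in both directions. GAP43, a growth cone protein, was at 150.7, 118.9 and 130.7 CPM in siNTC and 69.4, 65.5 and 73.0 CPM in siTBX2 (change of -0.94 on the log2 scale, SE 0.11, adjusted p = 0.00878). SNAP25, the membrane SNARE of synaptic vesicle fusion, fell from 14.6, 16.5 and 13.4 to 7.32, 9.56 and 8.09 CPM (-0.83, SE 0.13), and SYT4, a synaptotagmin of dense-core vesicles, from 22.1, 21.7 and 16.9 to 9.97, 12.3 and 8.55 CPM (-0.98, SE 0.16). The vesicle protein SV2C fell from a low level (-2.04, SE 0.39). Against these, the secretogranin SCG2 rose (239, 286 and 219 against 391, 359 and 356 CPM; 0.57, SE 0.10) and so did the collapsin response mediator DPYSL3 (116.0, 128.8 and 117.7 against 220.0, 212.5 and 233.6 CPM; 0.88, SE 0.17). GAP43 kept its call in all 9 fits without 1 library, SYT4 in 4 and SNAP25 in 3. SV2C and DPYSL3 kept theirs in 2 each and SCG2 in 1. The 29 synaptic and granin genes had 3 falls, 1 rise and a median of 0.19, and the 37 neurite genes 1 fall, 1 rise and a median of 0.10. STMN2, a tubulin-binding protein of growing axons, was called lower only with the block (-0.96, adjusted p = 0.0249; 0.0979 to 0.224 over the fits without 1 library), as RET, the receptor of GDNF, was (-0.77, 0.0455; 0.037 to 0.185). In the list of 35 ion channel genes and the list of 36 receptor tyrosine kinase and neurotrophin genes, no member was called by edgeR without the block, with 6 and 8 at an unadjusted p under 0.05. Over all tested genes, 2945 of 18367 had such a p. In those lists 3 and 4 members were called with the block.

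Cell cycle genes were read beside the shares of all tested genes, of which 0.795% rose and 0.811% fell. These shares were not matched for abundance, and the lists were chosen with earlier results of these data known. Of 40 FOXM1, DREAM and mitosis genes, cyclin B1 (CCNB1; 232, 224 and 222 against 300, 269 and 286 CPM; 0.34, SE 0.06) and the kinesin KIF20A (0.28, SE 0.06) rose, 34 had positive fold changes and the median was 0.13. Of 49 genes of G1/S and replication, 16 had positive fold changes and the median was -0.11. Here GINS4 (-0.64, SE 0.10) and CDC45 (-0.46, SE 0.09), parts of the replicative helicase, fell and GINS3, of the same complex, rose (0.39, SE 0.06). When any 1 library was left out, CCNB1, KIF20A, GINS3 and CDC45 lost their calls every time, and GINS4 kept its call in 4 fits of 9. Among 29 p53 targets MDM4, which restrains p53, fell (-0.75, SE 0.15). TANK, an adaptor of TRAF proteins, fell (39.5, 28.2 and 32.7 against 13.8, 16.9 and 12.6 CPM; -1.21, SE 0.18) and the inhibitor NFKBIB rose (0.49, SE 0.08) among 32 genes of NF-kappaB signalling. ID4, an inhibitor of helix-loop-helix factors, rose (0.50, SE 0.08) among 41 BMP, TGF-beta and WNT genes. TANK kept its call in 5 of the 9 fits without 1 library, MDM4 in 1, and NFKBIB and ID4 in none.

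No member was called by edgeR without the block among 37 interferon and antigen presentation genes (9 positive, median -0.18, with 9 lower and none higher before adjustment at p under 0.05), 34 immediate early genes (26 positive, median 0.25, 5 higher and none lower), 16 RNA interference genes (3 higher and 1 lower) or 35 repressor partners of TBX2 and polycomb genes (4 higher and 1 lower). With the block, BST2, PARP9 and DTX3L fell in the interferon list, and NR4A3 (1.62) and DUSP4 (0.75) rose and SPRY2 (-0.49) fell in the immediate early list. Of 22 tested genes reported elsewhere as TBX2 targets, MYCN rose and no other was called. With the block 3 fell, among them HAS2, a hyaluronan synthase (81.7, 66.8 and 55.1 against 41.9, 36.9 and 27.3 CPM; -0.94) and GJA1 (-0.34). The median of the 22 was 0.15, with 4 higher and 4 lower at an unadjusted p under 0.05. Over all 18367 tested genes, 1568 were higher and 1377 lower at that threshold.

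Some of the widest fold changes were in genes at a few CPM, named here after their values were seen. The ETS factor ERG was at 3.43, 2.00 and 2.47 CPM in siNTC and at 0.255, 0.0717 and 0.263 CPM in siTBX2 (change of -3.71 on the log2 scale, SE 0.47, adjusted p = 0.0131). The water channel AQP4 went the other way, from 0.0589, 0.395 and 0.272 to 2.61, 3.13 and 3.46 CPM (3.67, SE 0.59, adjusted p = 0.0266). The potassium channel KCNJ11 fell from 1.61, 1.25 and 1.45 to 0.403, 0.430 and 0.504 CPM (-1.68, SE 0.21), and the kinesin KIF21B rose from 1.82, 2.72 and 2.24 to 4.92, 5.81 and 5.81 CPM (1.29, SE 0.21). XIRP2 (-1.73) and the metalloprotease ADAM12 (-1.21) fell. At such levels a library holds few reads of the gene, and the log2 fold change carries a larger SE than that of an abundant gene. Of 2332 noncoding RNAs tested, 3 rose (0.129%) and 11 fell (0.472%), both shares below those of all tested genes (0.795% and 0.811%). HECW2-AS1 (2.55, 1.95 and 1.40 against 0.382, 0.334 and 0.417 CPM; -2.37, SE 0.29) and MAGI2-AS3 (179, 171 and 152 against 115, 115 and 107 CPM; -0.58, SE 0.08) fell, and USP2-AS1 rose (2.36, SE 0.32). HECW2, the sense partner of the first, fell too (-0.56).

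Promoters were searched for a T-box element and for the E-box that MYC proteins bind, in the RefSeq table of 300 bases a gene (250 before the start to 50 after; GRCh38.p14), which matched 112 genes that rose, 114 that fell and 11649 of all tested genes. The T-box core GGTGTGA, on either strand, was in 4.46% of the promoters of genes that rose, 7.02% of those that fell and 2.91% of all tested (3.43% of all 27305 promoters of the table). Its longer form AGGTGTGA was in 0.893%, 1.75% and 0.695% (0.982% of the table). The E-box CACGTG was in 20.5% of genes that rose, 5.26% of those that fell and 9.94% of all tested (7.43% of the table), and the 1158 genes that hold it had a median log2 fold change of 0.07, against 0.0011 for the 10491 without it. Of the 43 ribosome biogenesis genes searched 15 held it. These are counts of letters in a window, with no test, and abundance or base composition was not matched. The 250 bases before the start are shown for 3 genes that rose and hold the E-box and for ITGA1, which fell and holds the T-box core, with the motif in capitals and each read 5′ to 3′ on the gene's strand.
UTP20 (chr12:101279855-101280104, plus strand): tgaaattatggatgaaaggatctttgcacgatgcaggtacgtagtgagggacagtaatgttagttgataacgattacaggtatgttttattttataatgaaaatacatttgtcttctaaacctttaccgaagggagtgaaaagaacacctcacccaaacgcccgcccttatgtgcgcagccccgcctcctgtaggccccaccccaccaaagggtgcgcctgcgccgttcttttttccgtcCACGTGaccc
SLC7A5 (chr16:87869508-87869757, minus strand): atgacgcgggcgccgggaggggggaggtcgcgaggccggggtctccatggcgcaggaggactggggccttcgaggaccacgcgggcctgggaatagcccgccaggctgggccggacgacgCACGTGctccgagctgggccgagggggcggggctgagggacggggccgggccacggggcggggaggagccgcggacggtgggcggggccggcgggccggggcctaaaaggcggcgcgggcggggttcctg
TOMM20 (chr1:235128838-235129087, minus strand): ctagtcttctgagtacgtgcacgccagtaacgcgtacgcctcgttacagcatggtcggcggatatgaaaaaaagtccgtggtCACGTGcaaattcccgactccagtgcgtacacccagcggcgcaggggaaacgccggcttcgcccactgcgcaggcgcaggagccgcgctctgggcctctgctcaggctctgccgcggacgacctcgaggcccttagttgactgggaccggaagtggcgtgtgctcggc
ITGA1 (chr5:52787666-52787915, plus strand): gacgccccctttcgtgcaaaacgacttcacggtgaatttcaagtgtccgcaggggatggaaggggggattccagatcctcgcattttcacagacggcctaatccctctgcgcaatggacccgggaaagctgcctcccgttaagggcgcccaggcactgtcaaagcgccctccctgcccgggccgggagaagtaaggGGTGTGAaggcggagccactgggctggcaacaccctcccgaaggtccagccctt
The motif begins 10, 130, 168 and 54 bases before the start in the 4 promoters. UTP20, SLC7A5 and TOMM20 rose by 0.54, 0.80 and 1.02 on the log2 scale, and ITGA1 fell by 1.13. TOMM20 also holds the T-box core in its 300-base window, but not wholly within the 250 bases shown. In the genes searched, the T-box core was held by 5 that rose and 8 that fell.

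The 3′ UTRs of the called genes were searched for 7-base words that earlier results of these data had picked out, so their counts describe these genes and support nothing further. UTRs of at least 50 bases (GENCODE 29, the longest of a gene's coding transcripts) were at hand for 135 genes that fell, 136 that rose and 13039 of all tested. CAGAATG was in 48.1% of the genes that fell, 15.4% of those that rose and 17.4% of all, and CAGAATG or AGAATGA in 62.2% of those that fell and 27.1% of all. Among 15992 7-base words held by at least 100 genes, ranked by the difference in share between genes that fell and the others, AGAATGA was the highest and CAGAATG next. Genes that fell had longer UTRs, with a median of 2384 bases against 1383 over all tested genes, and longer UTRs hold more of any word. TBX2 mRNA itself holds the 8-base word CAGAATGA at 2 places, one before its 3′ UTR and one within it. The sites are shown with the word in capitals and flanking bases in lower case, as DNA letters of the mRNA strand, to make the shared part visible.
TBX2, base 1080 of 3339 in the mRNA, before the 3′ UTR: actgcctacCAGAATGAcaagatca
TBX2, base 2496, in the 3′ UTR: tgtacagcaCAGAATGAgtatttat
ADD3, 3′ UTR (chr10:110135018-110135042, plus strand): tcaatgatcCAGAATGAtcgtgggt
XPR1, 3′ UTR (chr1:180884703-180884727, plus strand): ttaaccataCAGAATGAtataactc
WDR31, 3′ UTR (chr9:113316444-113316468, minus strand): tgtattgctCAGAATGAtgacctgt
POSTN, 3′ UTR (chr13:37562777-37562801, minus strand): ttgtactctCAGAATGtttgtcata
SEMA3D, 3′ UTR (chr7:84998702-84998726, minus strand): ctacagggaCAGAATGcttaataaa
These genes all fell, by 1.15 (TBX2), 1.52 (ADD3), 1.21 (XPR1), 1.12 (WDR31), 1.90 (POSTN) and 1.27 (SEMA3D) on the log2 scale. POSTN and SEMA3D hold the first 7 bases of the word without the final A.

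The median fold change and the length of the 3′ UTR both differed between classes of the word over all searched genes. The 766 genes with CAGAATGA had a median log2 fold change of -0.09, and 40 of them (5.22%) fell. The median was -0.03 for 1503 genes with CAGAATG but not CAGAATGA, whether or not they also held AGAATGA elsewhere. It was -0.02 for 1266 with AGAATGA but not CAGAATG. For 2165 with only the 6 shared bases AGAATG it was 0.02, and for 7339 with none 0.03. The median UTR lengths of the same classes, in that order, were 3412, 2989, 2729, 2130 and 779 bases, and the part of UTR length in these medians was not tested. In siTBX2-AS1 against siNTC the same classes had medians between -0.01 and 0.04, and the control libraries are common to both comparisons. In siTBX2 against siTBX2-AS1, which does not use the control libraries, the medians were -0.07, -0.03, -0.02, 0.0017 and -0.0069 in that order of classes. Of the 19 genes that fell in every fit without 1 library, 15 held CAGAATG, 12 of them with the 8-base form, and VWDE, ITGA1 and GAP43 held neither 7-base word. Genes that fell with either word had a median of -0.72 and those without it -0.75. CAGAATG was held by 21 genes that rose, FBXO32 and LZTFL1 being the ones among the 14 that rose in every fit without 1 library. No source used here gives the siRNA sequences, and whether pairing with these words took part in the falls was not tested.

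A second word, AGACGTA, was in 13.97% of the 3′ UTRs of genes that rose and 1.76% of all. Its last 6 bases, GACGTA, were in 32 of 136 genes that rose (23.5%) and in 4.74% of all. The word was ranked at place 4 of 15992 by difference in share among genes that rose. It is absent from the 4 annotated TBX2 transcripts. FBXO32, MCFD2, LZTFL1, TOMM20 and H3-3A held it among the 14 genes that rose in every fit without 1 library, and 4 of these sites are shown in the same manner.
MCFD2, 3′ UTR (chr2:46905175-46905199, minus strand): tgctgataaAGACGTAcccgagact
LZTFL1, 3′ UTR (chr3:45825484-45825508, minus strand): ctttttaaaAGACGTAtattcaaca
TOMM20, 3′ UTR (chr1:235111557-235111581, minus strand): taatctctgAGACGTAaatatgtga
H3-3A, 3′ UTR (chr1:226066278-226066302, plus strand): tatgcattaAGACGTAaaaggagca
The 618 genes with GACGTA had a median log2 fold change of 0.11 in siTBX2 against siNTC and 0.10 in siTBX2-AS1 against siNTC, where the control libraries are shared. In siTBX2 against siTBX2-AS1, which does not use the control libraries, their median was -0.0038. The part of the control siRNA in these values was not tested.

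Each gene was also read in the siTBX2-AS1 libraries, and the difference between the knockdowns was tested in the same fit (siTBX2 minus siTBX2-AS1; 1015 genes called, 5.53% of those tested). TBX2 was at 173.5, 228.0 and 224.3 CPM in siTBX2-AS1, above every siTBX2 library (difference -0.84, SE 0.11, adjusted p = 0.00484). VWDE was at 14.2, 16.3 and 16.5 CPM there, above siNTC, and differed between the knockdowns (difference -2.13, adjusted p = 0.000257). SYT4 likewise fell in siTBX2 and read 37.9, 40.9 and 35.6 CPM in siTBX2-AS1 (difference -1.89, adjusted p = 0.000709). RFK was at 35.5, 34.4 and 34.8 CPM in siTBX2-AS1 (difference 1.39, adjusted p = 0.000278), and SERPINE2 at 4.25, 4.81 and 4.90 CPM (difference 2.52, adjusted p = 0.000434). CDC27 (-0.79), GAP43 (-0.72), SLIT3 (-0.93), FBXO32 (1.03), KLF9 (0.70) and, narrowly, MYCN (0.32, adjusted p = 0.0485) differed between the knockdowns too. MYCN read 348, 347 and 343 CPM in siTBX2-AS1, between the other groups.

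For other genes no difference between the knockdowns was called. ITGA1 read 128.7, 109.2 and 118.5 CPM in siTBX2-AS1 (siTBX2 minus siTBX2-AS1 -0.16, SE 0.11, adjusted p = 0.482). GPD2 differed by -0.06 (SE 0.09, adjusted p = 0.758) and FNDC3A by 0.03 (SE 0.09, adjusted p = 0.91). TOMM20 differed by 0.08 (SE 0.11), LZTFL1 by 0.09 (SE 0.13) and DDX18 by 0.14 (SE 0.06), with adjusted p = 0.757, 0.781 and 0.22. MAOB, at 31.9, 26.2 and 28.7 CPM in siTBX2-AS1, differed by 0.56 (adjusted p = 0.0742) and ADD3, at 44.0, 51.8 and 35.7 CPM, by -0.70 (0.0514). A missed call does not show that the knockdowns act alike on these genes. Both knockdowns share the siNTC libraries as their control.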

How the data were processed

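Total RNA of 9 NLF libraries was sequenced from stranded, ribosome-depleted libraries. Reads were processed with FastQC, STAR 2.4.2a and StringTie 1.3.3 against hg19, per the submitters' processing notes. The authors deposited expected counts per gene, as whole numbers, with no normalization. The authors also deposited FPKM values, scaled to gene length and library size. No source used here names the counting program, the annotation or the use of strand. The members and gene lists were chosen with earlier results of these data known.

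Counts were filtered (filterByExpr), scaled with TMM and fitted with edgeR 4.0.16 (glmQLFit, robust) in R 4.3.3 over all 9 libraries, without a replicate block, with Benjamini-Hochberg adjustment over 18367 genes. The SE is the fold change divided by the root of the quasi-likelihood F. FPKM served for marker levels and as an alternative on log2 values with limma 3.58.1. Of 57757 gene IDs, 51945 were named by the gene name table and 341 by GENCODE 29, and gene positions and 3′ UTRs are those of GENCODE 29 (GRCh38), not the build of the counts; promoters are from RefSeq (GRCh38.p14).

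Genes named were the 14 with the largest change in each direction among called genes at a mean log2 CPM of 2 or more, up to 4 a list and up to 6 a sequence feature, beside those called in every fit without 1 library and in both fits with the block. No gene met that last condition, since the 6-library fit with the block called none, so genes called in all 9 fits without 1 library and in the 9-library block were named instead, chosen after their values were seen. Same-numbered siNTC and siTBX2 libraries deviated together from their group means (correlations 0.229, 0.136 and 0.241), so the numbers served as the block in the alternative fits. The main fit and the permutation test did not use this pairing. Calls and SEs given without mention of the block are those of the main, unpaired fit. Alternatives were DESeq2 1.42.0, voom, other scalings and filters, FPKM, the block, the 6 libraries alone and each library left out. Two-sided tests were used throughout. Some genes are not reported here.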

Additional observations from a re-analysis of the deposited data

How the results depend on the processing

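Of the 95 named genes that were called, 0 changed direction under the alternatives, but the number of genes called in siTBX2 against siNTC (295) moved. DESeq2 called 1201, the fit without a filter on low counts 184, the 6 libraries alone 52 (45 of them among the 295), log2(FPKM + 1) 36 and log2(FPKM + 0.1) 33. With the replicate block 873 were called over 9 libraries and 0 over 6 (3660 of 17852 at an unadjusted p under 0.05). Leaving out 1 library gave 44 to 177, lowest without siTBX2 replicate 1 (44), siTBX2 replicate 3 (51) or siNTC replicate 1 (52). Size factors (287), upper-quartile scaling (257), a minimum of 1 CPM (333) and voom (310) stayed within 1.5 times. TBX2 itself missed the threshold only with the replicate block over 6 libraries (-1.17, adjusted p = 0.0753; 0.00631 to 0.0346 without 1 library). In the direct comparison siTBX2 minus siTBX2-AS1 (1015), DESeq2 called 2168, the replicate block 2084, log2(FPKM + 1) 463, log2(FPKM + 0.1) 437, and fits without 1 library 469 to 918. Of those 95, 0 were lost with DESeq2, 2 with the 9-library block, 63 with 6 libraries alone, 95 with the block over 6, 29 without the filter, 71 with log2(FPKM + 1), 73 with log2(FPKM + 0.1) (FBXO32, FBXO28 and LZTFL1 with both FPKM fits) and 34 to 66 without 1 library; the cause was not tested. The 3 libraries a group limit the precision at low counts.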
